A study of Mus musculus with 8 samples.

Results

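The EGF receptors and their ligands were described here by the H3K56ac peaks in and around 10 mouse genes. H3K56ac is the acetylation of lysine 56 on histone H3. The receptors were Egfr, Erbb2, Erbb3 and Erbb4, and the ligands were Hbegf, Areg, Ereg, Btc, Tgfa and Nrg1. A peak belonged to a gene when at least 1 bp of it fell within the annotated gene or 20 kb on either side, and 63 of the 105600 peaks in the merged list, or 0.0597%, did so. The family was chosen on measured values, because the widest peak of the whole list lies inside Egfr. Widths and covered shares are therefore given as descriptions, without tests.

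The study asked where H3K56ac lies in the genome of muscle stem cells (MuSCs) and how the loss of Sirt6, which encodes a deacetylase of this mark, alters it. MuSCs freshly isolated from C57BL/6 mice were profiled by ChIP-seq, in which chromatin fragments bound by an antibody are sequenced, with 2 H3K56ac libraries and 2 input libraries for each of 2 genotypes, 8 libraries in all. Control mice were labelled Wild type, and Sirt6mKO mice were Pax7-ICNCre pos Sirt6 fl/fl, with a Cre recombinase that is always active under the Pax7 promoter and so deletes Sirt6 in the whole Pax7 lineage and not only in MuSCs. MuSCs were sorted from limb and trunk muscle by Integrin-α7 and CD34 or by a fluorescent reporter. The study gives adult males for the experiments around these libraries, and any pooling of animals is not given in the sources used here.

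A single list of merged peaks was analysed. The score column held 0 throughout and none of the columns belonged to a sample, so that peak height, the reads behind a peak, replicate spread and genotype cannot be read from it, and a peak may come from Control MuSCs, from Sirt6mKO MuSCs or from both. Control and Sirt6mKO were not compared here. In sorted populations, the number of cells that carry the mark and the amount of mark per cell cannot be told apart. As a check of the labelled cell type, all 8 MuSC marker genes (Pax7, Myf5, Calcr, Itga7, Vcam1, Cdh15, Chrdl2 and Heyl) had a peak within 3 kb of a transcription start site (TSS), against 2 of 4 endothelial, 1 of 4 blood, 3 of 4 fibro-adipogenic, 2 of 4 Schwann cell and 4 of 4 myofibre genes. Over all coding genes the share with such a peak was 67.8%. The widest promoter peak was at least 7972 bp, at Cdh15, for the MuSC markers and at most 4349 bp for the myofibre genes, but the fibro-adipogenic gene Dpt had one of 9775 bp and was covered to 95.0%. When sorted cells were re-analysed, the study found them not fully pure. The part of other cells in the peaks of the EGF family was not tested.

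EGF receptors span the cell membrane, bind a ligand outside the cell and pair with one another, after which the kinase domains inside phosphorylate each other and recruit the RAS/MAPK and PI3K pathways. ERBB2 has no ligand of its own and serves as a partner, ERBB3 has a weak kinase and signals through its partner, and ERBB4 binds neuregulins. The ligands are made as membrane-bound precursors and released by proteases. In MuSCs, EGFR is known for its part in the orientation of asymmetric divisions. Histone acetylation at the lysine measured here lies on the outer face of the histone core and is found at active promoters and enhancers as well as on newly assembled nucleosomes.

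H3K56ac peaks were spread unevenly over the family. The window of Egfr, the receptor for EGF itself, held 28 of the 63 peaks, or 44.4%, and 71.2% of all peak-covered base pairs. Erbb2 and Erbb3 held 8 peaks each, Nrg1 6, Btc 4, Erbb4 and Hbegf 3 each, and Areg, Ereg and Tgfa 1 each. Together the 10 windows measured 2.92 Mb, of which 6.23% lay under a peak. The median width of the 28 peaks around Egfr was 1654 bp (quartiles 1047 and 4406 bp), compared with 890 bp (606 and 1794 bp) for the 35 peaks of the other 9 genes and 974 bp (626 and 2059 bp) for the whole list. Of the list, 6.00% of peaks were 5 kb or wider. Such peaks numbered 6 of 28 around Egfr (21.4%) and 1 of 35 around the other 9 genes (2.86%), the single one lying at Erbb2.

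**Figure D1:**
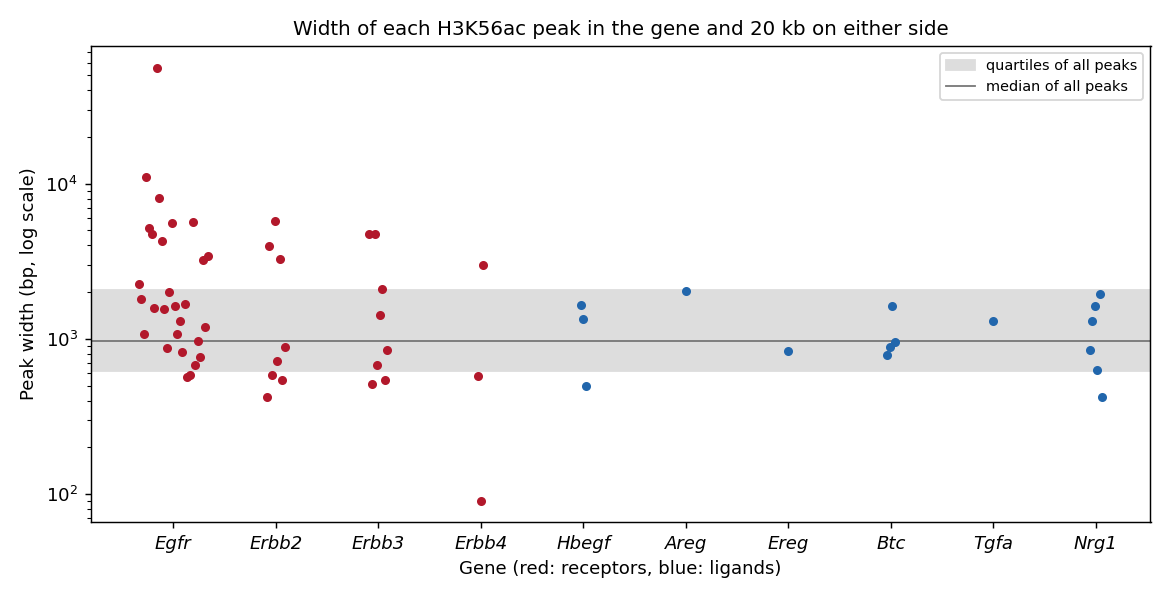
Width in bp, on a log scale, of each of the 63 H3K56ac peaks in a member gene or within 20 kb of it, with 1 point per peak, receptors in red and ligands in blue. The grey band and line give the quartiles and the median of all 105600 peaks. The Egfr column reaches 55966 bp, no peak of the other 9 genes is wider than 5742 bp, and every ligand peak is 2050 bp or narrower.

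Promoter marking was common to the family, while the share of members with a wide peak was close to that of coding genes. All 10 members had a peak within 3 kb of an annotated TSS, compared with 67.8% of the 21938 protein-coding genes. For 9 members, all but Tgfa, at least 1 TSS itself lay under a peak, compared with 62.1% of coding genes. Egfr and Erbb2 had a peak of at least 5 kb within 20 kb, 2 of 10 members, against 26.9% of coding genes. Of the 63 peaks, 12 covered a TSS of their own member and 18 lay within 3 kb of one. By position, 19 peaks touched an exon of the member, 24 lay in introns alone, 11 upstream and 9 downstream. For 50 of the 63 peaks, the nearest coding TSS was that of the member, so that 13 peaks, all at Egfr, Erbb2, Erbb3 or Hbegf, stood nearer to another gene.

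Egfr (ENSMUSG00000020122.16) lies on the plus strand at positions 16752203 to 16918158 of chromosome 11 (GRCm38, the assembly that mm10 denotes) and spans 166 kb. Its 28 peaks comprised 21 in the gene, 3 upstream and 4 downstream. The widest peak ran over 55966 bp, from 23.3 to 79.2 kb past the first TSS, at chr11:16775484-16831449. This was 57.5 times the median width of the list, and the second widest peak of the list measured 53370 bp. It lay within the first intron, of which it took 52.6%, and it filled 33.7% of the gene without touching the exons of the main transcript Egfr-201. A short exon of the noncoding transcript Egfr-205 and the TSS of Egfros, an antisense gene on the minus strand at 16815431 to 16830702, lay beneath it. The list carries no strand, so marks that belong to Egfr and to Egfros cannot be told apart there.

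The 250 bases before the Egfr start site and a stretch of the widest peak are printed below, both on the plus strand from RefSeq's GRCm38.p6. The stretch was chosen for its motif matches and does not stand for the whole peak. In the promoter, at chr11:16751953-16752202, capitals mark the one GC box (GGGCGG, or CCGCCC on the other strand). In the second stretch, at chr11:16783584-16783883, 8.10 kb into the widest peak, capitals mark both matches to the AP-1 motif TGANTCA, which reads the same on either strand. Of the 186 consecutive stretches of 300 bases in that peak, 24 held a match (12.9%). The most in any stretch was 2, held by 4 of them, and the one shown is the first of these. Over all peaks, 8.85% of 560826 such stretches held at least 1 match and 0.469% at least 2.
Egfr promoter: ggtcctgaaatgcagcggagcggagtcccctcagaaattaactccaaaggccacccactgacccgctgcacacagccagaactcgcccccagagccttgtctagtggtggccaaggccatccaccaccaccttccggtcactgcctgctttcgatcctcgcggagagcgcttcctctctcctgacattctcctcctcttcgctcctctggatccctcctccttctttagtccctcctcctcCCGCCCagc
Egfr intron: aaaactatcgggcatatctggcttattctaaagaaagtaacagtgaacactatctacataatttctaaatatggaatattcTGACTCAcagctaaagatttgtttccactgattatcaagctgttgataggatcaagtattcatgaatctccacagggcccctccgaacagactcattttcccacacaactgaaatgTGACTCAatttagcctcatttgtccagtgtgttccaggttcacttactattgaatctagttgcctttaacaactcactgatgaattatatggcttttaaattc

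The widest peak was part of an almost continuous run. From 1065 bp before the first TSS to 107 kb after it, 13 peaks covered 96.1% of 108 kb. The run opened with an 11112 bp peak over the promoter, which was followed by peaks of 5160, 4735 and 1582 bp. A gap of over 1 kb preceded the widest peak, and peaks of 8071, 4296, 1566 and 880 bp came directly after it. The last 4 peaks of the run measured 2005, 5597, 1633 and 1075 bp, and the final one reached the second exon. Of the 12 gaps between these peaks, 7 were under 100 bp, and the largest was 1585 bp. Gaps of 4 to 162 bp, 276 bp in sum, separated the widest peak and the 4 after it. With peaks less than 1 kb apart joined, those 5 formed a block of 71055 bp that ranked 33 among 58591 joined regions, the longest of which measured 167 kb, so Egfr holds the widest interval of the list only as the peaks were merged by the authors.

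H3K56ac thinned out towards the 3′ part of Egfr. The first intron, 106 kb long at positions 16752571 to 16858895, was covered to 96.1%, and the other introns together to 23.6%. In 10 equal parts of the gene from the 5′ end, the covered share was 98.5, 91.0, 100, 100, 99.6, 88.9, 48.2, 5.00, 18.9 and 41.9%. Of the 28 exons of Egfr-201, 7 touched a peak. The 8 peaks beyond the first intron included 1 of 829 bp over the TSS of the coding transcript Egfr-203, which starts 125947 bp after the first TSS, and 1 of 5626 bp over that of the noncoding transcript Egfr-204. All 5 annotated TSS positions of Egfr were under a peak. Late introns differed sharply from each other, with introns 21 and 22 fully covered, intron 23 to 78.6% and intron 20 to 58.2%, whereas the longest stretch without a peak, 16.3 kb, ran from 126 to 143 kb past the TSS.

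Outside the gene, peaks stood close to Egfr on the 5′ side and then stopped. Peaks of 2260, 1821 and 1074 bp lay between 13730 and 8420 bp before the first TSS. Further upstream, from 20 to 100 kb, there was no peak, and the next one, 467 bp wide, was 118020 bp away. On the 3′ side, 43.2% of the first 20 kb was covered, and 3 of the 4 peaks there stood nearer to the TSS of Fbxo48 than to a TSS of Egfr. From 20 to 100 kb downstream, 4 peaks covered 5.51%. At the edge of the window, the last peak inside lay 15610 bp past the gene with a width of 3431 bp, and the first outside lay 21814 bp past it with 931 bp.

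**Figure D2:**
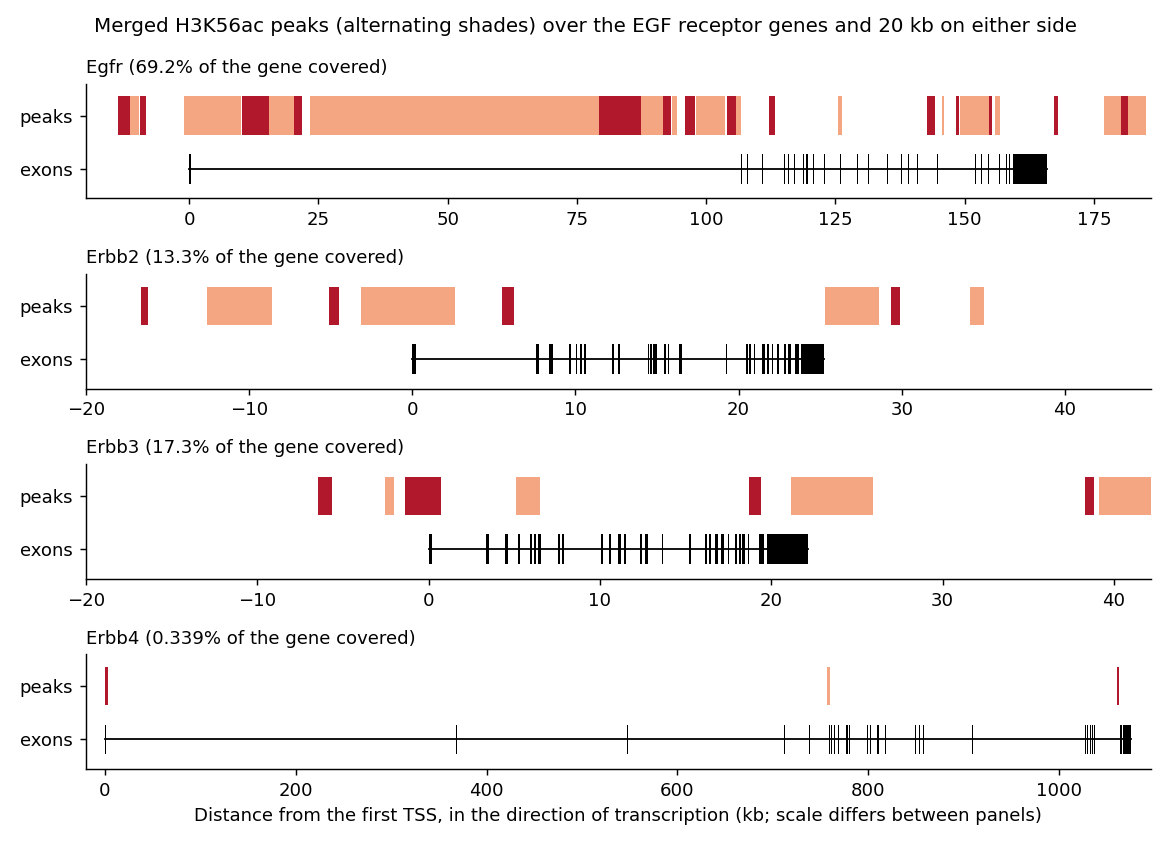
Peaks (upper track, alternating shades for neighbouring peaks) and exons (lower track, black) of the 4 EGF receptor genes, against distance from the first TSS in kb in the direction of transcription, with 20 kb on either side and a scale of its own for each gene. Very narrow features are drawn at a minimum width to be visible. Egfr is almost filled from its start to 107 kb, whereas Erbb2 and Erbb3 have a few separate peaks at the promoter, inside the gene and on either side, and Erbb4 has 3 narrow marks over 1076 kb.

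The genes whose pattern was most like that of Egfr were those with the next widest peaks that lay wholly in a gene and off the exons of its coding transcripts. Among 201 genes with such a peak of at least 10 kb, Egfr was followed by Tnik with 36159 bp, Zbtb20 with 30722 bp, Nfia with 29969 bp, Arhgap24 with 28313 bp and Ltbp1 with 27071 bp. These genes were 346 to 767 kb long, against 166 kb for Egfr. Their covered shares ranged from 33.8% at Ltbp1 to 84.1% at Nfia, so that the 69.2% of Egfr fell between those of Zbtb20, with 68.9%, and Nfia.

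Erbb2 (ENSMUSG00000062312.5), the receptor that works as a partner of the others, lies on the plus strand of chromosome 11 at 98412470 to 98437716. A single peak of 5742 bp, at chr11:98409360-98415101, spanned its promoter from 3110 bp before to 2631 bp after the first TSS. A second peak of 718 bp lay in an intron 5500 bp past the TSS, and 13.3% of the 25.2 kb gene was covered. The other 6 peaks of the window were outside the gene. Of these, 1 of 3969 bp covered the TSS of Pgap3, 1 of 3295 bp that of Mien1 and 1 of 890 bp that of Grb7, and only 3 of the 8 peaks stood nearest to Erbb2. Adding the flanks raised the covered share of Erbb2 to 24.8%, and peaks nearer to neighbouring genes contributed to that rise.

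Erbb3 (ENSMUSG00000018166.8), which signals through its partner kinase, lies on the minus strand of chromosome 10 at 128567523 to 128589652. Its promoter peak measured 2104 bp, from 1351 bp before to 752 bp after the TSS, and a peak of 544 bp lay just upstream. Within the 22.1 kb gene, 17.3% was covered, with peaks of 1422 and 681 bp 5104 and 18716 bp past the TSS. The widest peak that touched the gene, of 4778 bp, sat at its 3′ end over the TSS of the neighbour Pa2g4, which encodes a protein known to bind ERBB3. The 1422 bp peak covered the TSS of Mir6917, and others those of the long noncoding RNA gene Gm47540 and, 16989 bp past the gene, of Rpl41 and Zc3h10. Erbb3 was the nearest coding gene for 4 of its 8 peaks, and a large part of the covered bases in and around it thus lay at the start of other genes.

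Erbb4 (ENSMUSG00000062209.15), a receptor for neuregulins, lies on the minus strand of chromosome 1 at 68032186 to 69108059 and is 1076 kb long. It had 3 peaks, covering 0.339% of the gene. The promoter peak of 3010 bp began 34 bp before the first TSS and ran 2975 bp into the gene, over the starts of all 3 coding transcripts. The second, 91 bp wide and 757267 bp past the TSS, was the narrowest peak of the whole list, and the third measured 579 bp. No further peak was found within 223441 bp upstream of the gene. The Erbb4 promoter is printed below to show a start site that the mark covers almost only on its downstream side. Of its 250 bases at chr1:69108060-69108309 (minus strand, GRCm38.p6, RefSeq), 13.6% lay under the peak, and no letters are in capitals because none of the motifs searched was present.
Erbb4 promoter: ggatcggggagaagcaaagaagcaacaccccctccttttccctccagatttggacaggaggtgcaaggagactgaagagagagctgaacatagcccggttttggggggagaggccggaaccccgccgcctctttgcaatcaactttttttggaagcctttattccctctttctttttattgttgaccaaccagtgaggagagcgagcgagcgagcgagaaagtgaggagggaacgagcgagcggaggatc

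**Figure D3:**
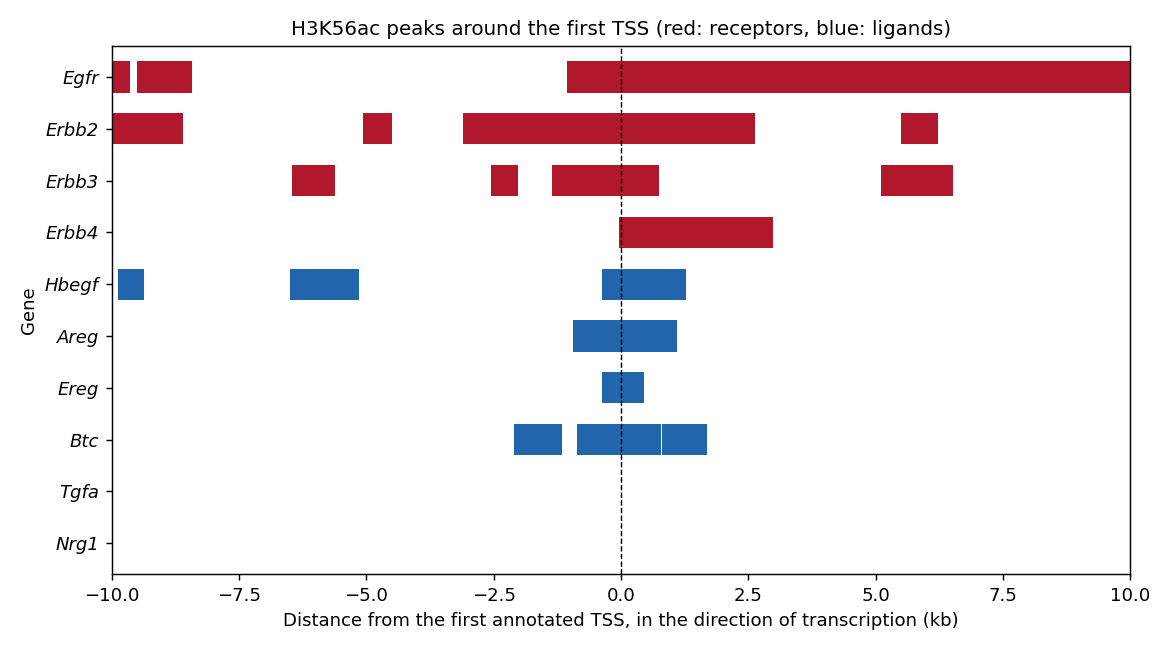
H3K56ac peaks within 10 kb of the first annotated TSS of each member, against distance from that TSS in kb in the direction of transcription, with receptors in red and ligands in blue. The first TSS of 8 genes lies under a peak, which at Erbb4 begins only 34 bp before it, and no peak is seen near the first TSS of Tgfa or Nrg1.

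The ligand genes carried small peaks, only some of them close to a start. Their 16 peaks included 9 within 3 kb of an own TSS, and their widest promoter peaks had a median of 1472 bp, against 4376 bp for the 4 receptors and 3430 bp (quartiles 2242 and 4945 bp) for the 14872 coding genes with a promoter peak. Even the widest, 2050 bp at Areg, was thus below the lower quartile of coding genes. With peaks less than 1 kb apart joined, the 1639 bp peak of Btc became 3784 bp, the widest of a ligand. The covered share of the ligand genes ranged from 0.632% at Nrg1 to 12.6% at Areg, with a median of 3.89%.

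Ereg, Areg and Btc, the genes of epiregulin, amphiregulin and betacellulin, lie in this order on chromosome 5 with a further EGF family gene, Epgn, before them. From Epgn to Btc, at 91027464 to 91402994, this 376 kb interval held 7 peaks that covered 1.67% of it, and outside the genes only 1 peak, of 486 bp and 56076 bp past Areg, lay between Ereg and Btc apart from the peaks over the starts. Areg (ENSMUSG00000029378.5, plus strand, 91139599 to 91148432), which binds EGFR alone, had 1 peak of 2050 bp from 940 bp before to 1109 bp after its TSS. Ereg (ENSMUSG00000029377.5, plus strand, 91074622 to 91093646), a ligand of EGFR and ERBB4, had 1 peak of 840 bp from 379 bp before to 460 bp after the TSS, which also covered the TSS of the antisense gene Gm19610. Btc (ENSMUSG00000082361.6, minus strand, 91357261 to 91402994), likewise a ligand of both receptors, had 4 peaks. These were 1639 bp over the TSS, 887 bp directly inside the gene, 951 bp upstream and 787 bp in an intron 34362 bp from the TSS. Each of these 3 ligands was covered to less than the median of coding genes within 20% of its length, with 12.6 against 13.5% for Areg, 2.42 against 10.6% for Ereg and 5.37 against 7.27% for Btc.

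Tgfa (ENSMUSG00000029999.14), the gene of transforming growth factor alpha, lies on the plus strand of chromosome 6 at 86195223 to 86275719. It was the member without a TSS under a peak. Its only peak, of 1305 bp, lay 14154 bp past the TSS of the coding transcript Tgfa-201 and 913 bp before that of the noncoding transcript Tgfa-204, which alone made it a promoter peak, and 1.62% of the 80.5 kb gene was covered. Counting coding transcripts alone, 9 of 10 members had a promoter peak. The 67.8% of coding genes counts any annotated TSS, and a share of coding genes under the narrower rule was not taken. The nearest peaks outside the window were 37716 bp upstream and 88647 bp downstream.

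Promoter sequences were compared between ligands whose start was marked (Areg and Btc) and the one whose start was not (Tgfa). RefSeq's GRCm38.p6 table held 6 of the 10 members and did not list Erbb3, Hbegf, Ereg and Nrg1. The motifs searched on both strands of the 250 bases before the start, with the share of 32851 promoters that hold them, were the AP-1 motif TGANTCA (6.75%), the E-box CAGCTG (13.0%), the GC box GGGCGG (32.7%), TATAAA (12.4%) and the cyclic AMP response element TGACGTCA (1.55%), the last of which was added after the promoters had been read. Capitals mark matches below, at chr5:91139349-91139598 (plus strand) for Areg, chr5:91402995-91403244 (minus strand) for Btc and chr6:86194972-86195221 (plus strand) for Tgfa. Areg held 1 E-box, 1 cyclic AMP response element, 1 GC box and 1 TATAAA, in that order towards the start, Btc 1 E-box and Tgfa 2 GC boxes.
Areg promoter: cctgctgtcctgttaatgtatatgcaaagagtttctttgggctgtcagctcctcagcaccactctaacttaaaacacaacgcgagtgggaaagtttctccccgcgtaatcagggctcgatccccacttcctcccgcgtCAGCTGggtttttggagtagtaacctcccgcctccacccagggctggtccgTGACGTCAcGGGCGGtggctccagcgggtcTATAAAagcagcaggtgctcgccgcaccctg
Btc promoter: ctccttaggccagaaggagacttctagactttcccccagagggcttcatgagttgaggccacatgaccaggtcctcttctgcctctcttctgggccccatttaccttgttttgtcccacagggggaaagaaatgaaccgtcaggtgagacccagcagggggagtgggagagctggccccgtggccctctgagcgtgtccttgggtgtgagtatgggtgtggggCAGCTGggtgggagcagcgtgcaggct
Tgfa promoter: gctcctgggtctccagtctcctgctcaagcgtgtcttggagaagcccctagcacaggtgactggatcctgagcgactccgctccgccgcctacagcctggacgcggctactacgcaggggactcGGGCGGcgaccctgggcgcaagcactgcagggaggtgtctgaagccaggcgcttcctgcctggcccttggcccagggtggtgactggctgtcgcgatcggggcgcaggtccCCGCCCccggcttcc

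The number of CpG dinucleotides did not order these promoters by their marking. In the 250 bases there were 19 at Tgfa, 16 at Erbb2, 15 at Areg, 12 at Erbb4, 11 at Egfr and 4 at Btc, where all promoters had a median of 6 (quartiles 2 and 16). Tgfa, with the most CpGs and more than 80.3% of all promoters, was under no peak, and Btc, with more than 37.8%, lay fully under its peak, as did Egfr, Erbb2 and Areg. These 6 values describe the promoters and were not tested.

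Nrg1 (ENSMUSG00000062991.7), the gene of neuregulin 1, a ligand of ERBB3 and ERBB4, lies on the minus strand of chromosome 8 at 31814551 to 32884029 and is 1069 kb long. It had 6 peaks in 3 places. A peak of 845 bp covered a group of transcript starts 965638 to 965749 bp past the first TSS, and 1 of 1298 bp covered a group 874538 to 874920 bp past it, together with the TSS of the noncoding gene Gm26578. Of the 15 TSS positions, 9 lay under these peaks. The other 4 peaks, of 1627, 629, 1941 and 424 bp, stood together in an intron between 589045 and 598390 bp past the first TSS. The first TSS and the next, 167 bp after it, were not under a peak, and the nearest peak was 302213 bp from the first. A further 4 positions past these were also free of peaks, 2 of them within 373 bp of the 845 bp peak.

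Hbegf (ENSMUSG00000024486.6), the gene of heparin-binding EGF-like growth factor, a ligand of EGFR and ERBB4, lies on the minus strand of chromosome 18 at 36504927 to 36515805. A peak of 1647 bp ran from 364 bp before to 1282 bp after the first TSS, covered all 3 TSS positions and took 11.8% of the 10.9 kb gene. Peaks of 1348 and 501 bp lay 5149 and 9374 bp upstream, the first over the TSS of the noncoding gene AC147220.1 and the second nearer to Slc4a9 than to Hbegf.

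Set against coding genes of like length (within 20% of that of the member), Egfr stood near the top, and the other 9 members did not. Of 730 other coding genes of its length, whose median covered share was 5.74%, 11 had a share at least as high as its 69.2%. Over all coding genes the median was 7.82% (quartiles 0 and 23.8%), and 1176 genes had a higher share than Egfr. A share as high as that of Egfr was less common among genes of its length than among all. The family was chosen by the widest peak, which alone fills 33.7% of Egfr, so these ranks only describe the gene. Of the other receptors, Erbb2 with 13.3% was above the 9.05% and Erbb3 with 17.3% above the 9.73% of genes of their length, while Erbb4 with 0.339% was below 0.431%. For Nrg1, of almost the same length as Erbb4, 0.632% stood above a median of 0.379%, and the long receptor and the long ligand were both sparsely covered. Hbegf with 11.8% was below 12.8%, and Tgfa with 1.62% below 6.99%. Without Egfr, the median of the other 9 members was 5.37%, which was lower than that of all coding genes.

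**Figure D4:**
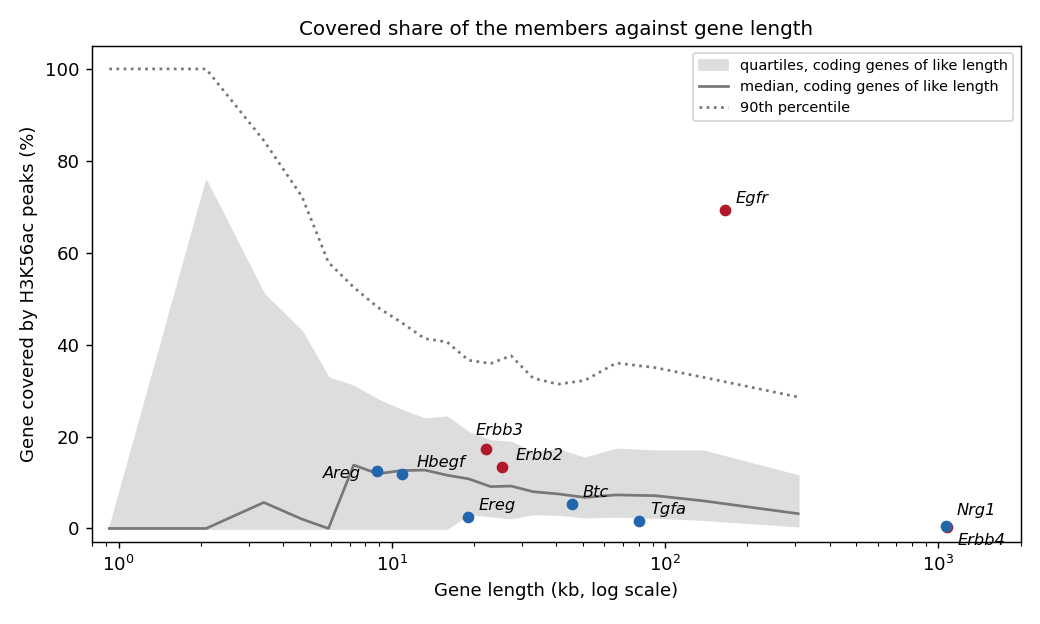
Share of each member gene covered by H3K56ac peaks (%) against gene length (kb, log scale), receptors in red and ligands in blue. The grey line, band and dotted line give the median, the quartiles and the 90th percentile of coding genes in 20 groups of like length. Egfr, at 166 kb and 69.2%, lies far above the dotted line, the other 9 members lie at 17.3% or below, and the points of Erbb4 and Nrg1 overlap at the right.

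The sequence under the Egfr peaks held fewer CpG dinucleotides, relative to expectation, than that under the peaks of the other members. CpG dinucleotides were found at 0.171 of the number expected from base composition in the widest peak and at 0.187 in the other Egfr peaks. The uncovered sequence of the Egfr window had a like ratio of 0.173, against 0.303 over all peaks and 0.190 over the genome. In the covered sequence of the other 9 members this ratio ranged from 0.268 at Btc to 0.653 at Erbb4. The covered sequences differ in place. Of the 129683 covered bases around Egfr, 102126 lay in its first intron, whereas at Erbb4 the promoter peak made up 3010 of 3680. The part of this difference in the ratios was not tested. The G and C content was 41.9% in the widest peak, 46.6% over all peaks, 41.7% over the genome and between 45.5% at Tgfa and 54.3% at Erbb4 in the other members. Repeats, taken as the soft-masked bases of the assembly, made up 14.5% of the widest peak, 22.4% of the uncovered sequence of the Egfr window, 19.4% of all peaks and 36.4% of the genome, and in the covered sequence of the other members they ranged from 4.63% at Areg to 27.7% at Tgfa. The study aligned reads only where they matched a single place, so repeated sequence is less able to give a peak, and the part of this in the lower repeat content was not tested. The AP-1 motif occurred 29 times in the widest peak, or 0.518 times per kb, compared with 0.353 per kb in the other Egfr peaks, 0.406 in the uncovered sequence around Egfr, 0.318 over all peaks and 0.318 over the genome. Among the other members it ranged from 0, at Erbb4, Ereg, Btc and Tgfa, to 0.572 per kb at Hbegf, which rests on 2 matches. The E-box CAGCTG, the form bound by muscle regulatory factors, occurred 0.429 times per kb in the widest peak. The other Egfr peaks had 0.638 per kb, the uncovered sequence around Egfr 0.288, all peaks 0.609 and the genome 0.390. Matches to short motifs are counts of letters and do not show binding.

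Around the receptors, the pathway that carries their signal was widely marked. Of 40 further EGF pathway genes, 38 had a promoter peak (95.0%, against 67.8% of coding genes), 32 were covered above the coding gene median, and their median covered share was 26.1%. Egfr had a higher share than all but 5 of them. Epgn and Nrg3 had no peak inside the gene or within 3 kb of a TSS, and their flanks beyond that were not counted.

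The remaining EGF family ligands were also sparsely covered. Of 5, 3 had a promoter peak, of 4558 bp at Egf, 2042 bp at Nrg4 and 570 bp at Nrg2, and their median covered share was 1.81%, with the highest at 10.8% for Egf. All 4 genes that release ligands from the membrane had a promoter peak, with 9087 bp at Rhbdf2 and 8471 bp at Rhbdf1, which encode iRhom proteins that guide the protease ADAM17, and 3033 bp at Adam17 itself. The protease gene Adam10 had 6477 bp, and the median share of these genes was 13.6%.

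Downstream of the receptors, all 15 genes of adaptors and of the RAS/MAPK cascade had a promoter peak, with a median share of 29.2% and promoter peaks of 11159 bp at the adaptor gene Gab1 and 6922 bp at the RAS activator gene Sos1. Gab1, with 67.8%, was covered almost as fully as Egfr. All 6 genes of the PI3K, PLC and STAT branch were also marked, with a median share of 37.4% and promoter peaks of 17834 bp at Plcg1, 15108 bp at Pik3ca and 4009 bp at Akt1. The regulatory subunit gene Pik3r1, covered to 72.6%, was the one of this branch above Egfr.

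Genes that restrain the receptors had the highest median share of the 5 pathway groups, 46.7%, but were split. All 10 had a promoter peak and 4 were covered above Egfr, whereas 4 others had low shares, with 3.15% at Cbl, 6.65% at Socs5, 11.7% at Rnf41 and 12.6% at Cblb. Lrig1, which encodes a membrane protein that promotes the breakdown of EGF receptors, carried a promoter peak of 39879 bp and was covered to 80.9%. Spred1, an inhibitor of RAS activation, had 11401 bp, and Errfi1, whose product binds and inhibits the EGFR kinase, had 11097 bp and a covered share of 78.2%. The short genes Dusp6, an ERK phosphatase, and Spry2, an inhibitor of receptor tyrosine kinase signalling, lay entirely under a peak. A short gene can be filled by a single promoter peak, so that shares of genes of different length are not on an equal footing.

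Covered shares of other receptor tyrosine kinases spanned 11.1 to 89.4%. All 9 had a promoter peak and a share above the coding gene median, and their median share was 40.0%. Fgfr4 with 89.4% and Fgfr1 with 78.7% stood above Egfr, Igf1r with 56.7%, Met with 50.3% and Fgfr3 with 40.0% stood between Egfr and Erbb3, and Insr with 16.3%, Fgfr2 with 16.1%, Pdgfrb with 11.7% and Pdgfra with 11.1% were close to Erbb2 and Erbb3. The annotated span of Fgfr2 in this release is 2961 kb, and its share is taken over all of it. The widest peak in any of these 9 genes was one of 22943 bp at Fgfr2, and at Igf1r and Fgfr1 the widest were 15151 and 17606 bp, below the 55966 bp of Egfr.

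**Figure D5:**
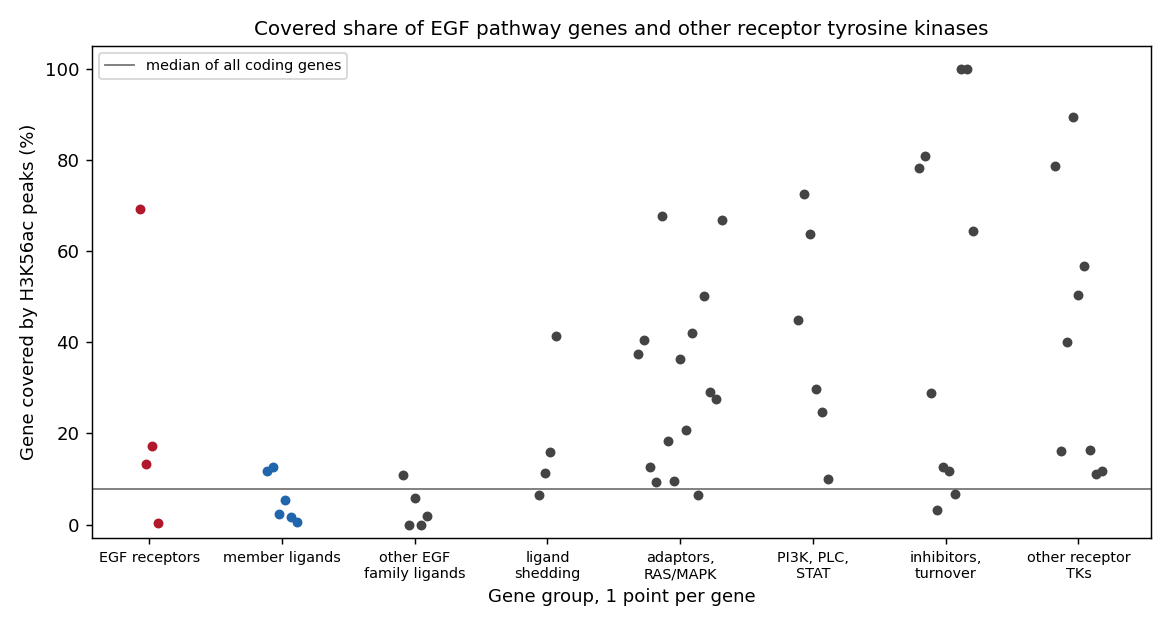
Share of the gene covered by H3K56ac peaks (%), with 1 point per gene, for the 4 EGF receptors (red), the 6 member ligands (blue), 40 further EGF pathway genes in 5 groups and 9 other receptor tyrosine kinases (grey). The grey line is the median of all coding genes, 7.82%. The member ligands lie between 0.632 and 12.6%, and the inhibitors reach up to 100%.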

How the data were processed

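H3K56ac ChIP-seq was described for 8 libraries of freshly isolated MuSCs in 4 groups of 2. The authors trimmed reads with Trim Galore, aligned them to mm10 with bowtie (uniquely placed reads kept), took out duplicates by Picard and blacklisted regions, called peaks with MACS2 and merged overlapping peaks with GenomicRanges. The deposited list holds the chromosome, start and end of each merged interval and a score of 0 in every row. FastQC, SAMtools and deepTools are also named in the submitters' processing notes. With no counts per sample, the planned comparison of Sirt6mKO with Control was not run. The study states the reads of each library, which are not used here, and the list gives no depth for any peak. Merging can fuse and widen intervals, so counts and widths describe the union of libraries. The study reports more H3K56ac peaks in Sirt6mKO MuSCs, and describes peaks after loss of Sirt6 as much broader than those of other histone marks. How far Sirt6mKO libraries set the widths given here cannot be read from the list.

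Intervals were set against GENCODE vM21 genes and the RefSeq GRCm38.p6 sequence with Python 3.11.15 and numpy 2.4.6, using scripts tested on simulated intervals. Coordinates count from 1. A promoter is within 3 kb of any annotated TSS, and a wide peak has at least 5 kb. The covered share is the percent of base pairs of a gene under a peak. No test was made, since the members, and the lists of pathway, receptor tyrosine kinase and marker genes, were chosen with earlier results of these data known. Named genes were the members, neighbours with a TSS in a window, the 3 genes of each pathway group with the widest promoter peaks and those with none, the listed receptor tyrosine kinases, and the 5 genes with the next widest intronic peaks. One gene that this rule names is not reported here. Pik3r1, Adam17, Dusp6, Spry2, Cbl, Socs5, Rnf41 and Cblb were named after their values were seen. Alternatives were windows of 0, 10 and 50 kb, promoters of 1 kb, coding transcripts alone, intervals of at least 500 bp, joining below 1 kb, and 50% overlap.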

Additional observations from a re-analysis of the deposited data

How the results depend on the processing

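No paired analysis was possible because none of the columns holds values by sample. For the same reason the planned edgeR test was not run. Nor were a DESeq2 fit, a fit without a filter or fits leaving out each replicate. No limit from replicate spread or from the reads behind a peak can be given. Of 55 alternative values for 23 results, 31 stayed the same and 24 moved. The 63 peaks in the windows became 43, 56 and 83 with 0, 10 and 50 kb on either side, and 40 once peaks less than 1 kb apart were joined. The covered share of the windows, 6.23%, was 5.51, 6.02 and 6.11% with 0, 10 and 50 kb, 6.20% with intervals of at least 500 bp and 6.37% with joining. Joining widened the Egfr peak to 71055 bp. The share of Egfr, 69.2%, was 63.0% with 20 kb on either side and 70.3% with joining. The wider window raised Erbb2 from 13.3 to 24.8% and lowered Areg from 12.6 to 4.20% and Hbegf from 11.8 to 6.87%. Joining widened the widest peak of Btc from 1639 to 3784 bp. A count was taken as the same within 1.5 times its value, and a width or share only where it did not change at the digits printed.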
